A study of Equus caballus with 6 samples.

Results

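The genes described here are 31 known targets of the glucocorticoid receptor, among them TSC22D3, PER1, DUSP1, ZBTB16, KLF9, KLF15, SGK1, DDIT4 and PDK4, which glucocorticoids induce in 1 or more tissues. They were followed in the testes of 6 adult stallions. After 10 days in the clinic, 3 stallions received 0.1 mg/kg of dexamethasone, a synthetic agonist of the receptor, intravenously, and 3 control stallions received saline in an equal volume. The testes were removed 12 h after the injection, and total RNA of the minced parenchyma of each animal was hybridised to 1 human CodeLink array, so that horse transcripts were read by probes built for human ones. The comparison asked which testicular transcripts differ after dexamethasone. Members were taken as the probes to which the platform annotation gives exactly 1 of the 31 symbols. This gave 43 probes for 29 genes, out of 53423 gene probes and 18278 genes with such a probe on the array. MT2A and CRISPLD2 were annotated only on probes that carry a second gene symbol, and no value is given for them. Each array stands for 1 animal.

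Without hormone the glucocorticoid receptor rests in the cytoplasm bound to heat shock proteins, and with hormone it enters the nucleus and binds DNA elements near its targets. Many of the early targets limit the signal or inflammation, such as TSC22D3 and DUSP1, others are transcription factors such as PER1, ZBTB16, KLF9 and KLF15, and in liver, muscle and fat others change fuel use, such as TAT, PCK1 and PDK4. In the testis the receptor is known from Leydig, Sertoli and peritubular cells.

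Each array read 22690 to 25537 of the gene probes above background, which is 42.5% to 47.8%. The 15 pairs of arrays correlated at 0.982 to 0.989 across probes, which are not independent replicates. As a check of the tissue, all 6 Leydig cell marker genes and 5 of the 6 Sertoli cell marker genes had a probe above background on some array. Of the 5 germ cell marker genes with a probe, ACRV1 and ODF1 were above background on 6 arrays and DDX4, TNP1 and PRM2 on 0. Of the 4 macrophage marker genes with a probe, CD68 was above background on 6 arrays, MRC1 on 5, and CD14 and CSF1R on 0. Of the 3 liver marker genes, ALB, APOA1 and TTR, 0 were above background. The median difference between dexamethasone and control stallions was -0.04 on the log2 scale for the tested Leydig markers, -0.02 for the Sertoli markers and 0.08 for the 2 tested macrophage markers, CD68 and MRC1. Single markers lay further from 0, among them the Leydig peptide INSL3 at -1.21 ± 0.23 and the Sertoli junction gene CLDN11 at 0.48 ± 0.13 (SE), each on its brighter probe, without overlap between the groups and with limma's adjusted p = 0.999. The CLDN11 value rests on 2 control stallions. On the second probe of each gene the groups overlapped, with differences of -0.52 ± 0.22 for INSL3 and 0.04 ± 0.12 for CLDN11 (SE). Their part in the results below was not tested. A low signal of a human probe does not show low expression in the horse. The number of arrays limits the precision, and for 3 animals in each group the smallest p of an exact two-sided permutation test is 0.1.

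Most of the target genes could be read, many of them close to background. A spot was taken as above background when its quality flag held neither L, for a signal near background, nor M, for no value, and when it had none of the flags C, I and P, whose meaning the files do not state. Of the 43 member probes, 18, for 16 genes, were above background in all 6 stallions, 10 in 3 to 5 stallions, 2 in 1 or 2, and 13 in 0. Of all 53423 gene probes 18759 were above background in all 6. By gene, 23 of the 29 members with a probe were above background on some array, against 12313 of all 18278 genes. Signal strength, the deposited ratio of the spot mean to the spot's noise level, was 0.580 to 0.983 on the 13 probes that were never above background. The clearest spots were those of BCL6, TSC22D3, FOXO1 and DDIT4, with median signal strengths of 6.53, 5.48, 5.46 and 4.76. Those of DUSP1, GLUL and PER1 had medians of 1.39, 1.41 and 1.10, only a little over the noise. The test took probes with 3 or more arrays above background and 2 or more values in each group, which were 28 probes of 21 members.

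**Figure D1:**
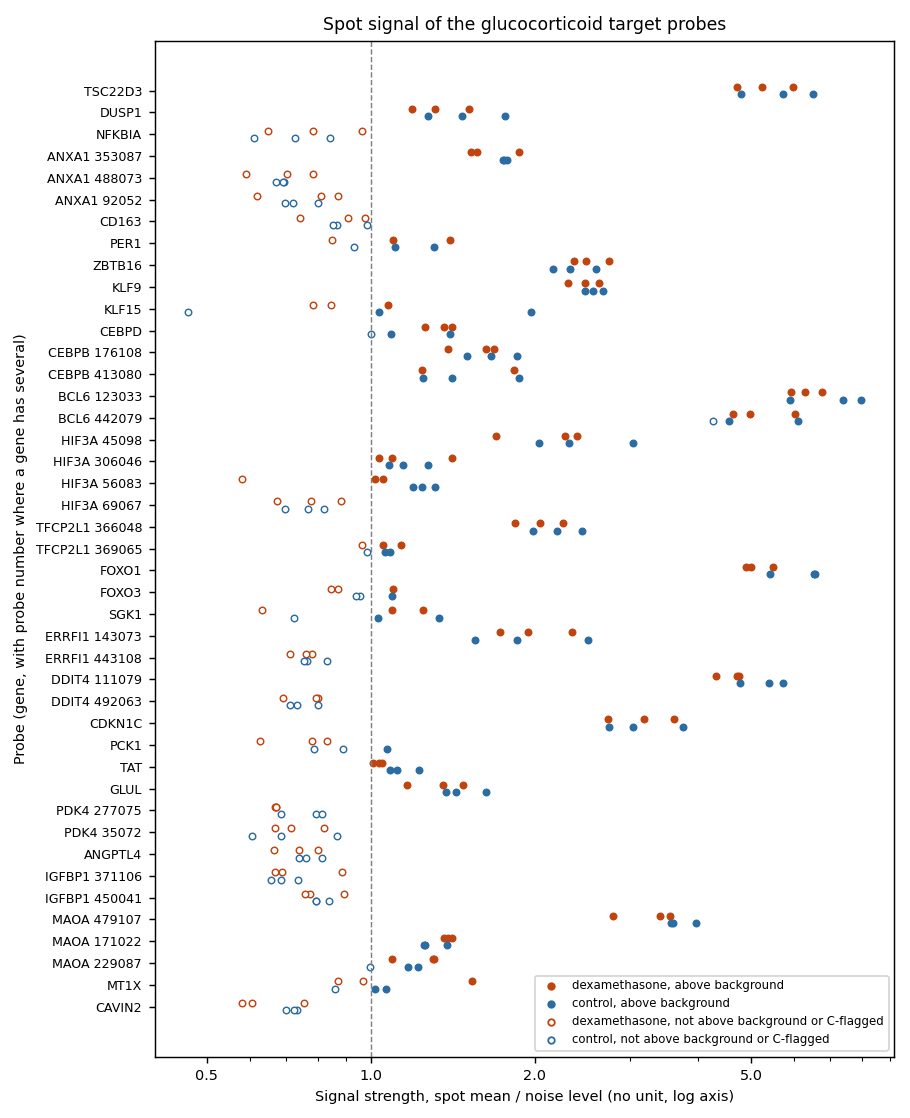
Signal strength (spot mean over noise level, no unit, log axis) of the 43 member probes, with 1 point per stallion, dexamethasone stallions in red above control stallions in blue. Filled points were above background, open points were not or carried a C flag, and the dashed line marks 1. The 13 probes never above background lie at 0.580 to 0.983, while TSC22D3, BCL6, FOXO1 and DDIT4 each have a probe well to the right of the line in every stallion.

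The 8 members with a probe that did not reach the test were NFKBIA, CD163, FOXO3, PCK1, PDK4, ANGPTL4, IGFBP1 and CAVIN2. The probes of 6 of them were above background in 0 of 6 stallions. These were NFKBIA, the inhibitor of NF-kB, CD163, the haemoglobin scavenger receptor of macrophages, PDK4, the kinase that holds back pyruvate dehydrogenase, ANGPTL4, an inhibitor of lipoprotein lipase, IGFBP1, a liver protein that binds IGF, and CAVIN2, a protein of caveolae. PDK4 and IGFBP1 were each unread by 2 probes. The FOXO3 probe was above background in 1 dexamethasone and 1 control stallion, and that of PCK1, the enzyme that commits carbon to gluconeogenesis, in 0 dexamethasone stallions and 1 control. No difference is given for these 8 genes, and the array does not tell whether they responded.

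Of the members that could be tested, none passed the test over all probes. On the log2 scale 11 of the 21 genes lay higher and 10 lower in the dexamethasone stallions, and their median difference was 0.00. Over all 10604 genes tested 47.3% lay higher and the median difference was -0.01. At limma's adjusted p of 0.05, 0 of the 28 member probes were called, and 0.00407% of all tested probes were, which is 1 of 24590. limma's adjusted p was 0.999 for each of the 28. At an unadjusted p of 0.05 there were 2 of the 28, or 7.14%, against 3.29% of all tested probes. They were the KLF15 probe and 1 of the HIF3A probes. Dexamethasone and control values were fully separate for 2 of the 28, again 7.14%, against 9.27% of all tested probes. In such bulk tissue, fewer cells of a type and less RNA per cell cannot be told apart.

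Most of the differences were small against the spread within the groups. For 12 of the 21 genes the difference was under 0.1 on the log2 scale. The median absolute difference was 0.04 over the 21 genes and 0.07 over all 10604 genes tested. For 20 of the 21 genes the difference was smaller than the range within at least 1 of the groups, which for KLF15 is that of only 2 control values. FOXO1 exceeded both ranges, and ZBTB16, CEBPD, KLF15, MAOA and MT1X exceeded the range of 1 group. The share of all genes with such a difference was not counted. limma's 95% interval lay between a 1.5-fold decrease and a 1.5-fold increase for 19 of the 21 genes. The interval of ERRFI1 ended just above that, at 1.502-fold, and that of KLF15 reached -1.01 on the log2 scale. These intervals are for normalised intensities, to which an offset of 50 had been added, and close to background the offset compresses a change of the transcript. With plain background subtraction the SE was 0.60 for SGK1, 0.53 for PER1 and 0.51 for KLF15, against 0.18, 0.20 and 0.21 here. The count of 19 therefore belongs to the reported processing, and it was not taken over all genes.

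**Figure D2:**
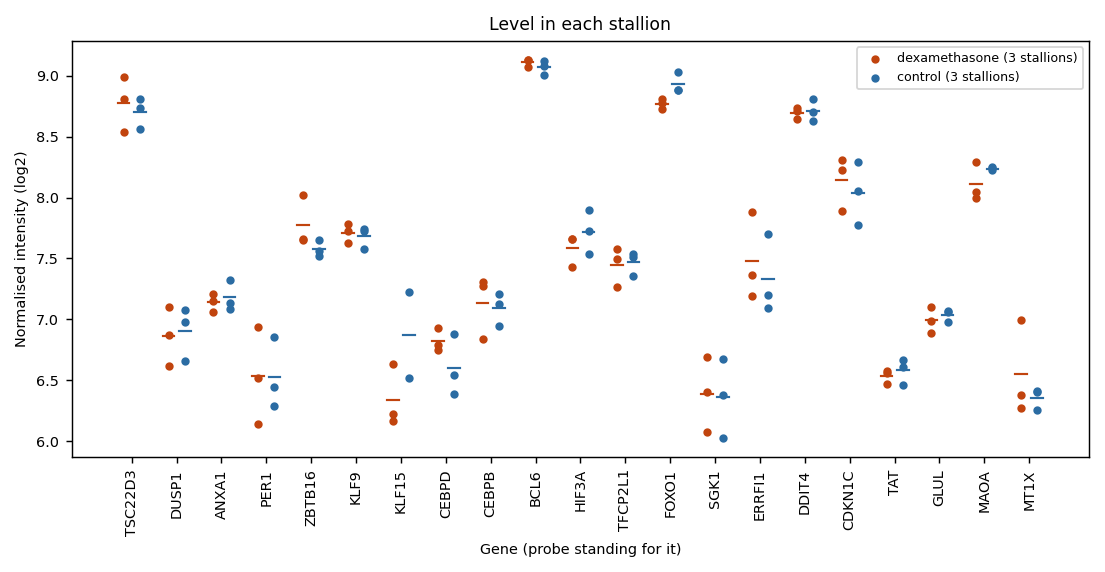
Normalised intensity (log2) of the 21 tested members in each stallion, dexamethasone in red on the left and control in blue on the right of each gene, with the mean as a bar. Levels of different genes come from different probes and are not comparable, but within a gene the red and blue points interleave for all except ZBTB16 and FOXO1.

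Among the feedback and anti-inflammatory targets 3 of 5 were tested. TSC22D3, which encodes GILZ, a leucine zipper protein that blocks NF-kB and AP-1, read 8.54, 8.99 and 8.81 in the dexamethasone stallions, against 8.73, 8.81 and 8.57 in the control stallions (normalised log2 intensity). The difference was 0.07 ± 0.12 (SE), and the upper end of its 95% interval was 1.27-fold. The spots are clear. Dexamethasone replicate 1 lay below all controls, replicate 2 above them and replicate 3 within their range. In the scaled intensities deposited by the authors, on a linear scale on which the median of each array is 1, TSC22D3 averaged 14.5 ± 2.87 in the dexamethasone stallions and 14.1 ± 1.24 in the control stallions (SD, n = 3 each). DUSP1, a phosphatase that switches off MAP kinases, read 6.62, 7.10 and 6.87 in the dexamethasone stallions, against 6.66, 7.08 and 6.98 in the controls, a difference of -0.04 ± 0.14 (SE). The groups spanned nearly the same interval. ANXA1, annexin A1, a mediator by which glucocorticoids restrain leukocytes, read 7.21, 7.15 and 7.06 in the dexamethasone stallions, against 7.13, 7.08 and 7.33 in the controls, and differed by -0.04 ± 0.09 (SE). That was its 1 probe of 3 above background.

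Of the 11 transcription factors 10 were tested, 6 higher and 4 lower, and a median difference of 0.02. ZBTB16, also called PLZF, a zinc finger repressor that also maintains spermatogonial stem cells in mice, read 7.66, 8.02 and 7.66 in the dexamethasone stallions, against 7.65, 7.52 and 7.56 in the control stallions. Of the 28 tested member probes it is the 1 on which all dexamethasone stallions lay above all controls in normalised intensity. The gap was narrow, with dexamethasone replicates 1 and 3 next to control replicate 1. In the authors' scaled intensities the groups overlapped, with control replicate 1 at 5.64 and dexamethasone replicate 1 at 5.47. The difference was 0.20 ± 0.11 (SE, exact two-sided permutation p = 0.1), and without dexamethasone replicate 2 it was 0.08. CEBPD, a C/EBP factor of the acute phase, read 6.75, 6.79 and 6.93 in the dexamethasone stallions, against 6.39, 6.88 and 6.54 in the controls. Control replicate 2 lay among the treated animals, and the difference of 0.22 ± 0.13 (SE) was 0.36 without it and 0.11 without control replicate 1, the 1 array on which CEBPD was not above background. With plain background subtraction it was 0.48. CEBPB, the related factor, read 6.84, 7.27 and 7.30 in the dexamethasone stallions, against 6.95, 7.12 and 7.21 in the controls, a difference of 0.04 ± 0.13 (SE) with groups that overlapped fully.

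FOXO1, a forkhead factor that drives fasting and atrophy genes, was the only one of the 28 tested member probes on which all dexamethasone stallions lay below all controls. It read 8.77, 8.73 and 8.81 in the dexamethasone stallions, against 8.89, 9.03 and 8.89 in the control stallions, and differed by -0.16 ± 0.08 (SE, exact two-sided permutation p = 0.1). In scaled intensity it averaged 14.1 ± 1.35 in the dexamethasone stallions and 16.9 ± 0.77 in the controls (SD, n = 3 each). The difference was -0.30 with median scaling, which lowered all probes by a median of 0.08. KLF15, a factor of amino acid and glucose metabolism, had the widest difference of the 21 genes, -0.53 ± 0.21 (SE, exact two-sided permutation p = 0.3). It read 6.22, 6.63 and 6.16 in the dexamethasone stallions, against 7.22 and 6.52 in control replicates 1 and 3, as the spot of control replicate 2 carried flags C and L. The probe was above background in 1 of 3 dexamethasone and 2 of 3 control stallions. Dexamethasone replicate 2 exceeded control replicate 3, and without control replicate 1 the difference of the means was -0.18. With the flagged spot kept it was -0.33, and with the authors' scaled intensities -1.22.

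KLF9, a Krüppel-like factor and a standard glucocorticoid target, read 7.72, 7.78 and 7.62 in the dexamethasone stallions, against 7.58, 7.75 and 7.72 in the controls, and differed by 0.03 ± 0.09 (SE). Its 6 values lay within 0.21 of each other. PER1, a clock gene and one of the fastest targets, read 6.52, 6.14 and 6.94 in the dexamethasone stallions, against 6.44, 6.29 and 6.86 in the controls. Each group held a high, a middle and a low animal, the low ones not above background, and the difference was 0.00 ± 0.20 (SE). It was 0.20 without dexamethasone replicate 2 and -0.20 without dexamethasone replicate 3. BCL6, a repressor of inflammatory genes, read 9.13, 9.07 and 9.13 in the dexamethasone stallions, against 9.08, 9.12 and 9.01 in the controls, the narrowest range of the 21 genes, with a difference of 0.04 ± 0.08 (SE). It was -0.09 with median scaling. TFCP2L1, a grainyhead-type factor, read 7.27, 7.57 and 7.49 in the dexamethasone stallions, against 7.54, 7.36 and 7.51 in the controls, and differed by -0.02 ± 0.10 (SE).

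All 4 targets that restrain growth or transmit signals were tested, 3 higher and 1 lower, with a median difference of 0.06. SGK1, a kinase that stabilises sodium channels, read 6.40, 6.08 and 6.69 in the dexamethasone stallions, against 6.38, 6.68 and 6.03 in the control stallions. The spot of 1 animal in each group was not above background, and the difference was 0.03 ± 0.18 (SE). ERRFI1, also called MIG6, an inhibitor of the EGF receptor, read 7.19, 7.89 and 7.37 in the dexamethasone stallions, against 7.20, 7.70 and 7.09 in the controls. In each group replicate 2, a number that links no animals, stood above the others, and the difference was 0.15 ± 0.19 (SE), or -0.05 without dexamethasone replicate 2. DDIT4, also called REDD1, a brake on mTOR, read 8.64, 8.74 and 8.72 in the dexamethasone stallions, against 8.70, 8.63 and 8.81 in the controls, a difference of -0.02 ± 0.09 (SE). Its groups overlapped within a range of 0.18. CDKN1C, the cell cycle inhibitor p57, read 7.89, 8.23 and 8.31 in the dexamethasone stallions, against 7.78, 8.29 and 8.05 in the controls, and differed by 0.10 ± 0.15 (SE).

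Of the 7 metabolic targets 3 were tested, and all 3 differed by less than the range within the dexamethasone stallions. TAT and GLUL also differed by less than the range within the controls, and MAOA by more. TAT, the liver enzyme that opens tyrosine breakdown and a classical glucocorticoid target, read 6.58, 6.47 and 6.56 in the dexamethasone stallions, against 6.46, 6.67 and 6.61 in the controls, a difference of -0.04 ± 0.09 (SE). Its signal strength was 1.01 to 1.23, just over the noise in every animal, while ALB, APOA1 and TTR were not above background. GLUL, glutamine synthetase, read 6.99, 7.10 and 6.89 in the dexamethasone stallions, against 7.06, 7.06 and 6.98 in the controls, and differed by -0.04 ± 0.09 (SE). MAOA, the monoamine oxidase, read 8.05, 8.00 and 8.29 in the dexamethasone stallions, against 8.25, 8.23 and 8.24 in the controls. Here 2 treated animals lay below the closely grouped controls and 1 above them, and the difference was -0.13 ± 0.10 (SE). Of the metallothioneins, proteins that bind zinc and copper, MT1X read 6.99, 6.27 and 6.38 in the dexamethasone stallions, against 6.41, 6.40 and 6.26 in the controls. The difference of 0.19 ± 0.17 (SE) rested on dexamethasone replicate 1, the 1 treated animal above background, and was -0.03 without it and 0.40 with plain background subtraction. Metallothionein genes are close copies of each other and neither MT1X nor MT2A was among the symbols of the horse gene table, so the MT1X probe may read other family members.

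**Figure D3:**
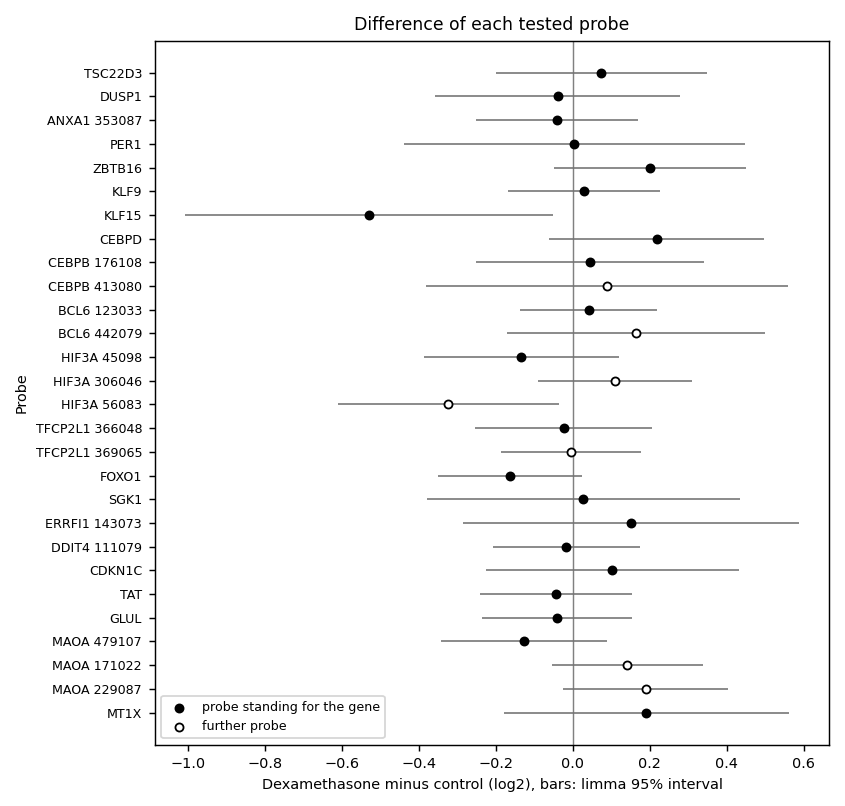
Difference between dexamethasone and control stallions (log2) for the 28 tested probes, with limma's 95% interval. Filled points are the probe with the highest mean level of its gene, which stands for the gene, and open points are its further probes. The intervals of KLF15 and of HIF3A probe 56083 lie below 0, the other 26 include it.

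Several probes allowed a check within genes. Of the 10 members with more than 1 probe, PDK4 and IGFBP1 were read by none of them, ANXA1, ERRFI1 and DDIT4 by 1, and CEBPB, BCL6, HIF3A, TFCP2L1 and MAOA by at least 2. The second DDIT4 probe had a signal strength of 0.689 to 0.799, where the first had 4.32 to 5.73, so that the same gene was clearly read by 1 human probe and not by the other. Of the 9 pairs of tested probes in these last 5 genes, 5 had differences of the same sign, among them the pairs of CEBPB, BCL6 and TFCP2L1. The second probes differed by 0.09 ± 0.21 for CEBPB, with 2 values in the dexamethasone stallions, by 0.16 ± 0.15 for BCL6, with 2 values in the controls, and by -0.00 ± 0.08 for TFCP2L1 (log2, SE).

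HIF3A, a subunit of the hypoxia-inducible factors, had 3 tested probes that disagreed in sign. The probe that stands for it, 45098, read 7.66, 7.43 and 7.66 in the dexamethasone stallions, against 7.53, 7.90 and 7.73 in the control stallions, and differed by -0.13 ± 0.11 (SE). Probe 56083 read 6.14, 6.45 and 6.62 in the dexamethasone stallions, against 6.57, 6.82 and 6.79 in the controls, and differed by -0.32 ± 0.13 (SE, exact two-sided permutation p = 0.2). Dexamethasone replicate 1 was not above background on it, and dexamethasone replicate 3 lay above control replicate 1. Probe 306046 read 6.72, 6.68 and 6.58 in the dexamethasone stallions, against 6.54, 6.65 and 6.45 in the controls, and differed by 0.11 ± 0.09 (SE). MAOA had 2 further probes, which differed by 0.14 ± 0.09 and 0.19 ± 0.10 (SE), opposite in sign to the one that stands for it. The ratio of 2 probes within each stallion was compared between the groups for the 9 pairs of tested probes in these 5 genes. The first MAOA probe against the second gave -0.27 and against the third -0.32, and HIF3A probe 306046 against 56083 gave 0.43 (dexamethasone minus control, log2). Each had an exact two-sided permutation p of 0.2, or 0.45 adjusted over the 9 pairs, and the smallest p possible was 0.1. With the mean of its probes MAOA differed by 0.07.

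The values of these genes varied within both groups. With 1 array for each stallion, variation between animals and between arrays cannot be told apart. The range over the 6 animals had a median of 0.47 on the log2 scale over the 21 members, against 0.32 over all 10604 genes tested, and 12 of the 21 members ranged more widely than that median gene. KLF15, PER1 and ERRFI1 had the widest ranges, at 1.06, 0.80 and 0.80, and BCL6, DDIT4 and KLF9 the narrowest, at 0.12, 0.18 and 0.21. The KLF15 probe was above background on only 3 arrays and the PER1 probe on 4. Among the 20 members with a value in every animal, the highest of the 6 was dexamethasone replicate 2 in 7, dexamethasone replicate 3 in 6, dexamethasone replicate 1 in 2, control replicate 2 in 3, control replicate 3 in 2 and control replicate 1 in 0. The lowest of the 6 was dexamethasone replicate 1 in 4, replicate 2 in 4 and replicate 3 in 2, against 4, 2 and 4 for control replicates 1, 2 and 3. Over all genes with 6 values each stallion was the highest in 15.6% to 18.9% and the lowest in 13.6% to 21.4%. Set against its own mean over the animals, the median member deviated by -0.02, 0.05 and 0.01 in the dexamethasone stallions and by -0.03, 0.05 and 0.03 in the control stallions. The arrays fall into 2 runs of slide numbers, one with 2 dexamethasone and 2 control stallions and one with 1 of each. The median difference of the 21 members was -0.01 within the first run and 0.05 within the second. The sign was the same in both runs for 14 of the 21, a share that was not counted over all genes. SGK1 differed by -0.29 in the first and 0.66 in the second, and TSC22D3 by -0.01 and 0.25, values that carry no test.

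**Figure D4:**
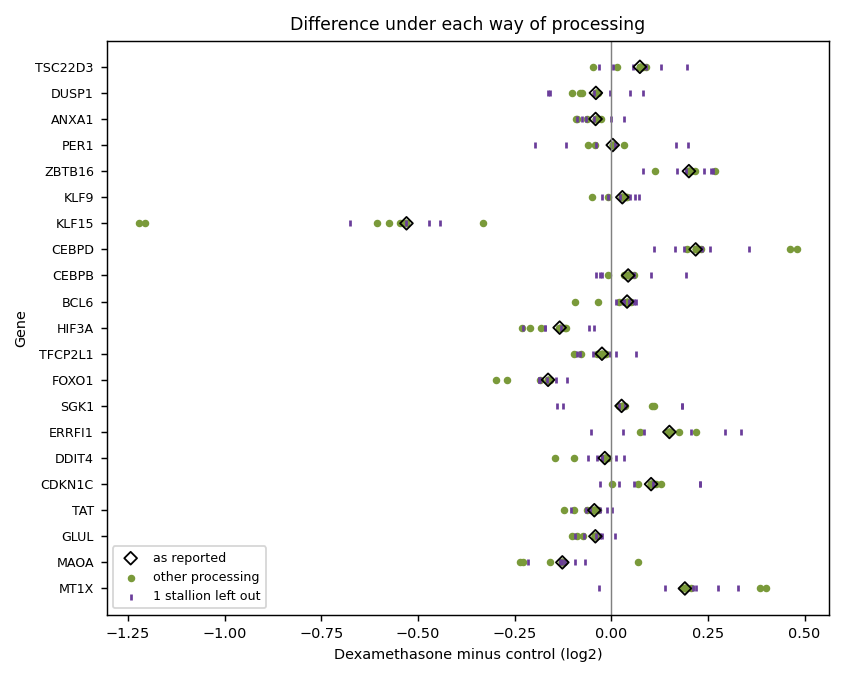
Difference between dexamethasone and control stallions (log2) of the 21 tested members as reported (diamonds), under other ways of processing (dots) and with 1 stallion left out (ticks). KLF15, HIF3A, FOXO1, ZBTB16 and CEBPD stay on 1 side of 0 in all settings that gave a value, and the other 16 cross it at least once.

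Further genes that glucocorticoids induce in some tissue were read in the same way. Of a list of 28, 24 had a probe and 15 were tested, 9 higher and 6 lower, with a median difference of 0.04. Over all 10604 genes tested 47.3% lay higher and the median difference was -0.01. At limma's adjusted p 0 of the 15 passed, and 0 of all 10604 genes tested. At an unadjusted p of 0.05 there was 1 of the 15, against 410 of all 10604. The 1 was THBD, thrombomodulin, which read 6.36, 6.11 and 6.46 in the dexamethasone stallions, against 6.59, 6.67 and 6.52 in the control stallions. Its difference was -0.28 ± 0.11 (SE, limma's adjusted p = 0.999). FKBP5, a cochaperone of the receptor and one of its most responsive targets in other tissues, was above background on 0 arrays. Of 9 genes of the receptor itself, its chaperones and cortisol metabolism, 4 were tested and 0 passed. NR3C1, the receptor gene, read 11.49, 10.89 and 11.20 in the dexamethasone stallions, against 11.65, 11.47 and 10.93 in the controls. This probe was clearly read in all 6, while a second NR3C1 probe was above background on 0 arrays. Neither enzyme that interconverts cortisol and cortisone, HSD11B1 or HSD11B2, was above background.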

How the data were processed

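Total RNA of testicular parenchyma from 6 stallions was read on 1-colour human CodeLink arrays with Alexa-647 label, per the labels' protocols. The scanner software is not given in the sources used here. Per the file headers, the authors deposited a spot mean intensity, a local background median, a scaled intensity (background-subtracted, divided by 1 constant per array) and a quality flag, and the series table repeats the scaled intensity. The deposited signal strength is a score, equal to spot mean over noise level. Spots flagged C, I or P were treated as missing and probe names printed more than once were left out. Intensities were corrected with normexp (offset 50), quantile normalised and taken to log2 in limma 3.58.1 (R 4.3.3). Probe symbols come from GEO's annotation of the platform. Symbols were looked up in the horse gene table of assembly TB-T2T, which held 29 of the 31. No probe, promoter or protein sequence was used here.

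limma's lmFit and eBayes compared the groups with no covariate in a two-sided test, and p-values were adjusted by Benjamini-Hochberg over 24590 probes. The probe with the highest mean level stands for a gene. Every member is named, with the values of each stallion where it was tested. Replicate numbers follow sample order and pair no animals. limma's SE, intervals and p-values use each probe's variance between arrays, 1 per animal, drawn toward a prior from all probes. The SE can therefore exceed what a probe's own spread gives. For BCL6 it was 0.08, with SDs of 0.03 in the dexamethasone and 0.05 in the control stallions. The members, lists and alternatives were chosen with earlier results of these data known. Simulated data for this comparison had 24590 probes. With 20 of them changed, the adjusted test recovered 0 of 7 changes of 1.5-fold, 6 of 7 of 2-fold and 5 of 6 of 4-fold. It called 0 unchanged probes. With 200 changed it recovered 53.7% of the 1.5-fold, 95.5% of the 2-fold and 100% of the 4-fold changes, and called 13 unchanged probes. The changes were put on normalised values, after the offset, and on probes picked at random. The noise was independent between values and drawn from limma's prior variance for all probes. The members' own spread was not simulated, so the recovery does not carry over to single members. In the real data the brighter INSL3 probe differed by -1.21 ± 0.23 (SE) with limma's adjusted p = 0.999. Figures were drawn with matplotlib 3.10.9.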

Additional observations from a re-analysis of the deposited data

How the results depend on the processing

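No paired analysis was possible because the labels give the stallions no shared replicate numbers. In limma 0 member probes passed the adjusted p in the reported setting and in each of the 15 other settings that test probes, and the lowest adjusted p of any of the 21 genes was 0.659. At an unadjusted p the 2 member probes became 3 with median scaling, 0 with the filter of all 6 arrays, which tests 18 member probes and neither of those 2, 1 with the flags C, I or P kept, 1 under eBayes with trend and robust settings, and 0 to 3 when single stallions were left out (0 without dexamethasone replicate 1 or control replicate 3, 1 without control replicate 1). Over all probes the 1 called became 0 under that filter and under eBayes with trend and robust settings, and 0 to 1 when single stallions were left out (0 without control replicate 1 or 3). Probes at an unadjusted p numbered 808, with 44.8% higher, and 1798 with median scaling, 6.17% of them higher, 2073 with no filter, which tests 52902, and 838 with the authors' values, 26.0% higher. Causes other than the number of probes tested were not tested. The median of the members stayed between -0.06 and 0.05. Of 329 gene values 32 changed sign, and 5 of the 21 genes kept their sign throughout. As 0 of these values passed the adjusted p, there was no called gene whose sign could change. With slide run as a block the differences were 0.07 ± 0.13 for TSC22D3 and -0.61 ± 0.16 for KLF15 (SE). Leaving out stallions kept the normalisation of all 6. KLF15 could not be fitted without control replicate 1 or 3. Signals near background and the 3 animals in each group both limit the precision.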
